A study of Rattus norvegicus and Bos taurus with 12 samples.

Results

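The small leucine-rich proteoglycans (SLRPs) are secreted matrix proteins built on a curved stack of leucine-rich repeats, most of which carry glycosaminoglycan chains or sulfated tyrosines. Their transcripts were followed in cardiac fibroblasts (Cfib) from calves with pulmonary hypertension (PH) and in adult rat ventricular myocytes (ARVM) kept in medium conditioned by such fibroblasts (PH-CM). The members were taken by symbol, as the rows of the 2 expression tables named Bgn, Dcn, Aspn, Lum, Fmod, Prelp, Omd, Ogn, Podn and Islr. The list was made with earlier results of these data known. All 10 members were listed in at least 1 table, 6 among the 2115 genes listed for Cfib and 8 among the 7052 listed for ARVM, of 9167 listed entries in all. DCN, LUM, FMOD and PRELP were not listed for Cfib, and Omd and Podn were not listed for ARVM. ASPN, BGN, ISLR and OGN were listed in both tables.

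Cfib were grown at low passage from the right ventricle of neonatal calves, 3 kept at the ambient altitude of Denver (CO) and 3 kept at reduced atmospheric pressure until they had PH. ARVM came from adult Sprague Dawley rats, with 3 control libraries of freshly isolated cells and 3 libraries of cells held for 7 days in serum-free medium that PH Cfib had conditioned. GEO's treatment field names the groups of both experiments by serum from cows at low or high altitude, whereas the study's methods describe the calves and the conditioned medium given above. ARVM kept in culture without PH-CM were not analysed here, so an effect of PH-CM and one of days in culture cannot be told apart. For the ARVM libraries nothing states that each came from a separate animal, and p-values then measure only the spread between libraries.

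Both tables hold only genes that the authors had selected for a difference between the groups. All 2115 Cfib genes and all 7052 ARVM genes had every library of one group above every library of the other (100% in each table), so a gap between the groups says nothing particular about a member. By limma on log2(value + 1), 58.2% of the listed Cfib genes were called higher and 39.4% lower in PH Cfib at an adjusted p under 0.05. In ARVM, 53.9% were called higher and 43.7% lower in PH-CM. Rescaling the Cfib libraries by the median of ratios turned 1230 calls higher and 833 lower into 840 and 869 and the median log2 fold change of all listed genes from 0.33 into 0.07, with the members still higher. The study's methods describe normalized counts for both tables, but 1.57% to 2.42% of the Cfib values of a library were whole multiples of its smallest step (within 0.01), against 100% in ARVM. The Cfib signal was therefore taken as scaled by gene length, which no source states, and its read depth is unknown. The ARVM values are normalized counts, reads divided by 1 size factor per library, from 12122463 to 18842171 reads over the listed genes. Correlations of log2 values between libraries of a group were 0.976 to 0.993 in CO Cfib and 0.997 to 0.998 in PH Cfib. In fresh ARVM they were 0.974 to 0.978, and in PH-CM ARVM 0.983 to 0.989. The median coefficient of variation of a gene was 13.7% in CO Cfib, 5.01% in PH Cfib, 9.74% in fresh ARVM and 10.1% in PH-CM ARVM. Cfib p-values rest in part on the small spread of the PH libraries, the cause of which was not tested.

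SLRPs bind fibrillar collagens and set how fibrils grow and space themselves, and several of them also hold growth factors such as TGF-β or engage cell surface receptors. Biglycan (BGN), decorin (DCN) and asporin (ASPN) form one class, in which biglycan and decorin carry chondroitin or dermatan sulfate and asporin carries a run of aspartate in place of a chain. Lumican (LUM), fibromodulin (FMOD), osteomodulin (OMD) and prolargin (PRELP) form another, in which lumican, fibromodulin and osteomodulin can carry keratan sulfate. Osteoglycin (OGN), also called mimecan, belongs to a class with epiphycan, podocan (PODN) to a further one, and ISLR, also called Meflin, is a related leucine-rich repeat protein of mesenchymal stromal cells. In the heart these proteins are made mainly by fibroblasts.

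In the rat genome (RefSeq, GRCr8) Ogn, Omd and Aspn follow each other on chromosome 17, with Ecm2, another leucine-rich repeat matrix gene, after a pseudogene and Rpl6-ps6. Of the 10 members, 7 had a promoter entry in RefSeq, and Dcn, Bgn and Prelp had none. The sequences upstream of the 3 neighbours are shown because Ogn and Aspn moved in opposite directions in ARVM, as the values later show. Each is given 5′ to 3′ on the minus strand up to the annotated start, with a match to the TATA box (TATAAA, either strand, overlapping matches joined) in capitals.
Ogn, chr17:15259168-15259245: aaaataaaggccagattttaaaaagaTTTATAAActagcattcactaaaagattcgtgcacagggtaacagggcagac
Omd, chr17:15274871-15275120: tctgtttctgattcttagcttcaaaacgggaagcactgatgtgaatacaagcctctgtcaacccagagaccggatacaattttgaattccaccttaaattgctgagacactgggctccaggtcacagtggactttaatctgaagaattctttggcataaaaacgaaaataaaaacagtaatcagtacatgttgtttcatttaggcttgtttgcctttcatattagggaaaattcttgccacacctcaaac
Aspn, chr17:15310568-15310719: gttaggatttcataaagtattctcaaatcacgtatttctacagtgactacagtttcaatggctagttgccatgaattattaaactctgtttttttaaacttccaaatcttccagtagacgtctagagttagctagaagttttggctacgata
The 78 bases shown for Ogn held the overlapping TATA box matches, and the 250 bases of Omd and the 152 bases of Aspn held none. Among 33469 rat promoters of 300 bases, 14.2% held TATAAA, and among the 7 matched members only Ogn did. CCAAT, found in 37.5% of promoters, stood in those of Lum and Fmod. The TEAD motif GGAATG, in 14.2% of promoters, was found for Ogn outside the stretch shown. The AP-1 motif TGANTCA (7.33% of promoters) and the CArG box (1.64%) were found in 0 of the 7. These matches describe letters in a window and not binding.

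In PH Cfib, all 6 listed members were called higher than in CO Cfib, beside 58.2% of the listed genes. Their median log2 fold change was 2.61, from 1.35 for PODN to 5.51 for ASPN, beside a median of 0.33 over all listed genes. ASPN had the 4th and ISLR the 5th largest rise of the 2115 genes on log2(value + 1), and such ranks depend on the pseudocount. By the ratio of means, LRRC17 (118-fold) rose more than ASPN (85.5-fold) and ISLR (44.6-fold). At a pseudocount of 0.1, LRRC17 (log2 fold change 5.61) stood above ISLR (5.48) and below ASPN (6.34).

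BGN, which binds collagen and can signal through Toll-like receptors, had the highest signal of the 6. It stood at 317, 317 and 202 in CO Cfib 1 to 3 and at 1634, 1648 and 1543 in PH Cfib 1 to 3. All PH libraries lay above all CO libraries, by 4.87-fold at the nearest pair. The mean rose 5.77-fold, from 279 ± 66.7 (SD, n = 3) to 1608 ± 56.9, with a log2 fold change of 2.55 (SE 0.19, limma adjusted p = 4.48e-05).

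ASPN, which binds collagen and TGF-β, was close to the low end of the scale in CO Cfib. Its signal was 1.51, 0.725 and 1.01 in CO Cfib and 97.3, 88.8 and 91.3 in PH Cfib. The PH libraries averaged 92.5 ± 4.37 (SD, n = 3), whereas CO libraries averaged 1.08 ± 0.400. The log2 fold change was 5.51 (SE 0.14, limma adjusted p = 1.07e-06), and the lowest PH library was 58.7-fold above the highest CO library.

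OMD and PODN had smaller rises than the other 4, and their order between each other changed with the pseudocount. OMD, known from mineralizing tissue, was at 18.1, 13.4 and 6.89 in CO Cfib and at 50.6, 38.5 and 38.3 in PH Cfib. CO Cfib 3 was the lowest library and PH Cfib 1 the highest. The log2 fold change was 1.74 (SE 0.32, limma adjusted p = 0.00217).

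PODN, a podocan known from vessel wall and kidney, had the lowest level of the 6 in PH Cfib. Its signal was 2.03, 2.11 and 0.662 in CO Cfib and 5.92, 5.36 and 4.84 in PH Cfib. The groups were 2.29-fold apart at the nearest pair, and the log2 fold change was 1.35 (SE 0.25, limma adjusted p = 0.00229). Over the pseudocounts of 10 and 0.1 it ran from 0.41 to 1.83 for PODN, from 1.23 to 1.82 for OMD and from 3.21 to 6.34 for ASPN, and the ratio of the means was 3.36 for PODN and 3.32 for OMD. With the PH libraries averaged into 1 sample, an alternative that drops their own spread, the adjusted p was 0.0631 for PODN and 0.0576 for OMD, and both calls were lost.

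OGN, which takes part in collagen fibril assembly, was at 19.3, 11.5 and 12.3 in CO Cfib and at 99.4, 91.1 and 92.3 in PH Cfib. Its mean rose 6.57-fold, with a log2 fold change of 2.67 (SE 0.18, limma adjusted p = 3.52e-05). ISLR was at 4.46, 2.29 and 3.22 in CO Cfib and at 147, 154 and 143 in PH Cfib. This was a 44.6-fold rise of the mean and a log2 fold change of 5.14 (SE 0.18, limma adjusted p = 3.25e-06), with the groups 32.0-fold apart at the nearest pair.

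**Figure D1:**
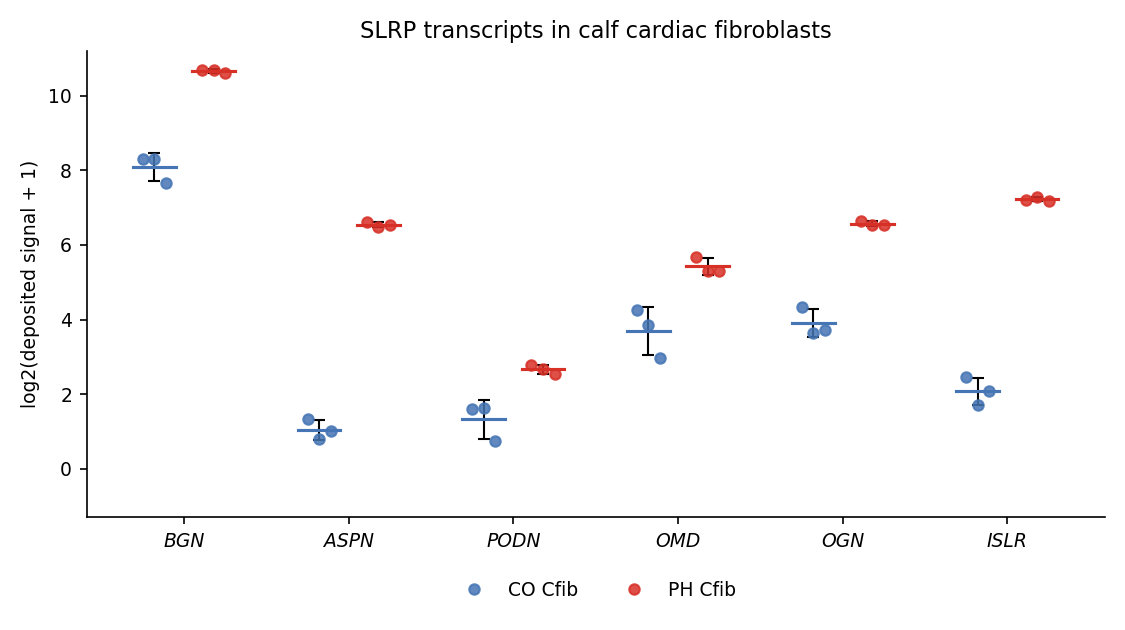
Deposited signal of the 6 listed members in calf Cfib, on the vertical axis as log2(signal + 1), with 1 point per library, CO in blue and PH in red, a horizontal line at the mean and a black bar for the SD (n = 3). The PH libraries lie above the CO libraries for each member and close to each other, with the widest gap for ASPN (log2 fold change 5.51) and values of 1.35 for PODN and 1.74 for OMD at the lower end.

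The order of the members by level differed between the groups. Levels of different genes are comparable here only if the signal is scaled by gene length, which was inferred from the values, and the same holds for shares of a sum. In CO Cfib the means fell from BGN (279) over OGN (14.4 ± 4.28) and OMD (12.8 ± 5.62) to ISLR (3.32 ± 1.09), PODN (1.60 ± 0.815) and ASPN (1.08 ± 0.400). OGN and OMD overlapped in CO Cfib, and so did PODN and ASPN. In PH Cfib the order was BGN (1608), ISLR (148 ± 5.41), OGN (94.3 ± 4.46), ASPN (92.5 ± 4.37), OMD (42.4 ± 7.05) and PODN (5.38 ± 0.541). OGN and ASPN overlapped there, while the other neighbours in that order did not.

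The summed signal of the 6 members was 363, 347 and 226 in CO Cfib and 2034, 2025 and 1913 in PH Cfib. BGN made up 89.4% ± 1.94 (SD, n = 3) of it in CO Cfib and 80.8% ± 0.539 in PH Cfib. The share of ASPN was 0.358% ± 0.130 and 4.65% ± 0.227, and that of ISLR 1.10% ± 0.399 and 7.43% ± 0.170. The share of OGN was 4.69% ± 1.19 and 4.74% ± 0.209, a difference smaller than the spread between CO libraries. OMD made up 3.96% ± 0.972 and 2.13% ± 0.314 of the sum, although its own signal was higher in PH Cfib. CO Cfib 3 was the lowest of the 6 libraries for BGN, OMD and PODN.

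In ARVM, 7 of the 8 listed members were called higher in PH-CM, beside 53.9% of the listed genes, and Ogn was called lower, beside 43.7%. The median log2 fold change of the 8 was 5.64, from -1.75 to 6.81, beside 0.37 over all listed genes. Normalized counts are not scaled by gene length, so levels were compared between libraries and not between genes. In these bulk RNA samples, fewer cells of a type and less RNA per cell cannot be told apart.

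Dcn, a collagen- and TGF-β-binding member that was not listed for Cfib, had normalized counts of 589, 578 and 421 in fresh ARVM 4 to 6 and of 9014, 9904 and 10842 in the PH-CM libraries, with library 2 given first here and in what follows. Every PH-CM library was at least 15.3-fold above every fresh one. The mean rose 18.7-fold, from 530 ± 93.7 (SD, n = 3) to 9920 ± 914, with a log2 fold change of 4.24 (SE 0.13, limma adjusted p = 1.62e-07).

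Bgn was at 114, 103 and 75.4 normalized counts in fresh ARVM and at 5062, 5003 and 6160 in PH-CM ARVM. The mean rose 55.5-fold, with a log2 fold change of 5.80 (SE 0.16, limma adjusted p = 1.09e-07). Aspn rested on 6 reads in fresh ARVM 4 and on 0 reads in fresh ARVM 5 and 6, against 454, 261 and 224 reads in PH-CM ARVM. As normalized counts these were 9.50, 0 and 0 in fresh ARVM and 343, 225 and 190 in PH-CM ARVM. The log2 fold change was 6.81 (SE 0.88, limma adjusted p = 0.000194), and with so few control reads it moved with the pseudocount, from 4.35 at 10 to 9.06 at 0.1.

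Lum, which binds collagen and is abundant in cornea and connective tissue, was at 61.7, 48.2 and 37.2 normalized counts in fresh ARVM. In PH-CM ARVM it was at 4290, 3833 and 4969, an 89.0-fold rise of the mean. Its log2 fold change was 6.47 (SE 0.19, limma adjusted p = 1.20e-07). Fmod, which competes with lumican for a site on collagen, was at 55.4, 30.0 and 28.9 in fresh ARVM and at 193, 100.1 and 203 in PH-CM ARVM. It had the smallest rise of the 7 that were higher, with a log2 fold change of 2.09 (SE 0.38, limma adjusted p = 0.00119) and groups 1.81-fold apart at the nearest pair. Prelp, a heparin-binding member that anchors basement membranes to connective tissue, was at 47.5, 16.1 and 14.5 in fresh ARVM and at 991, 1003 and 1142 in PH-CM ARVM. Its log2 fold change was 5.48 (SE 0.41, limma adjusted p = 1.03e-05).

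Ogn moved the other way. It was at 1855, 1414 and 1401 normalized counts in fresh ARVM and at 792, 332 and 362 in PH-CM ARVM, where library 2 was the highest. The lowest fresh library was 1.77-fold above the highest PH-CM library. The mean was 3.14-fold lower in PH-CM, 495 ± 257 against 1556 ± 258 (SD, n = 3), with a log2 fold change of -1.75 (SE 0.31, limma adjusted p = 0.000999). This fall rested on 1172 to 1356 reads in fresh ARVM and 385 to 1047 reads in PH-CM ARVM, and 7.44% of the listed genes had a lower log2 fold change.

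Islr rested on 8 reads in fresh ARVM 4 and on 0 in fresh ARVM 5 and 6, against 168 to 215 reads in PH-CM ARVM. In normalized counts it was at 12.7, 0 and 0 in fresh ARVM and at 163, 145 and 177 in PH-CM ARVM. The log2 fold change was 6.08 (SE 0.95, limma adjusted p = 0.000532) and lay between 3.70 and 8.32 over the pseudocounts of 10 and 0.1.

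**Figure D2:**
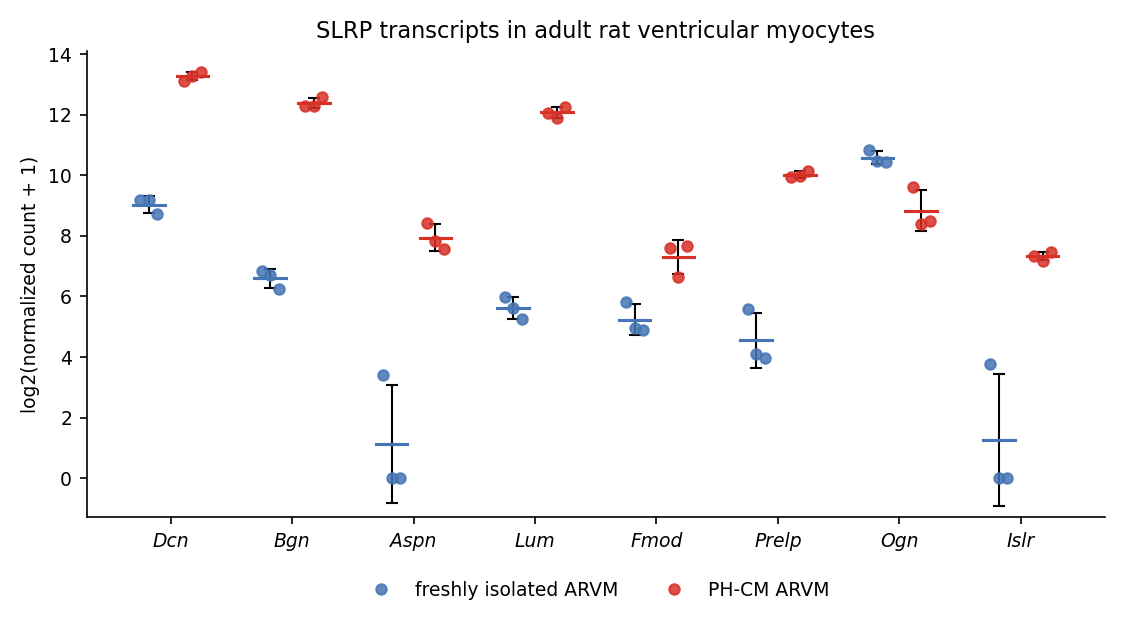
Normalized counts of the 8 listed members in rat ARVM, on the vertical axis as log2(normalized count + 1), with 1 point per library, freshly isolated in blue and PH-CM in red, a horizontal line at the mean and a black bar for the SD (n = 3). For Ogn the fresh libraries are above the PH-CM libraries and for the other 7 members they are below, and the fresh libraries at 0 for Aspn and Islr are numbers 5 and 6.

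Fresh ARVM 4 had the highest value of the fresh libraries for 8 of the 8 members, whereas it was the highest for 38.2% of all listed genes and for 32.7% of the genes with a higher mean in PH-CM. It also had the fewest reads over the listed genes, 12122463, against 17712896 and 17926137 in the other fresh libraries. Without fresh ARVM 4 the log2 fold change was 7.94 for Aspn, 7.34 for Islr and 6.01 for Prelp, where those of Aspn and Islr stand against fresh libraries with 0 reads and depend on the pseudocount. All 8 members kept their direction and their call in each of 13 alternatives. Among these, edgeR on the recovered reads gave 5.79 for Bgn, 6.62 for Aspn, 5.55 for Islr and -1.66 for Ogn. Over all listed genes, 6452 to 6878 of 7052 were called in the alternatives that kept every gene. Under the minimum mean of 50, 5976 of 6121 were called. Every listed gene had its groups apart, so leaving out a library could not turn a direction. A kept call thus says little particular about a member.

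Markers of several cell types moved with the SLRPs in ARVM, and their part in the SLRP values was not tested. Of 10 fibroblast markers, 10 were listed and all were higher in PH-CM, with a summed level of 4212 to 5289 normalized counts in fresh and 43448 to 60958 in PH-CM libraries. Mfap5 was the only one at 0 in all fresh libraries, and Pdgfra, a receptor that marks cardiac fibroblasts, rose from a mean of 135 to 1810. S100a4 (means of 1237 in fresh and 32372 in PH-CM) and Vim (3158 and 14573) made up most of the summed fibroblast marker level in both groups. The summed SLRP level was 1978 to 2744 in fresh and 20546 to 24045 in PH-CM libraries. Of 14 cardiomyocyte markers, 13 were listed, 12 lower and 1 (Myh7) higher, with sums of 1758100.1 to 1779003 in fresh and 181080 to 221583 in PH-CM libraries. Smooth muscle and pericyte markers (9 of 9 listed, 7 higher and 2 lower) summed to 4716 to 5707 and 32105 to 50366.5. Macrophage and leukocyte markers (11 of 12 listed, all higher) summed to 272 to 394 and 8090 to 11931. Endothelial markers (9 of 9 listed, 8 lower and 1 higher) summed to 9501 to 11695 and 4082 to 4797. Lower in PH-CM were thus 12 cardiomyocyte, 8 endothelial and 2 smooth muscle and pericyte markers, beside 43.7% of all listed genes called lower. Which cells the Ogn reads came from was not tested.

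In Cfib, 4 of the 10 fibroblast markers were listed, all higher in PH, with sums of 125 to 149 in CO and 218 to 234 in PH libraries. Of 9 smooth muscle and pericyte markers 5 were listed, 4 higher and 1 lower, with sums of 94.9 to 132 in CO and 219.9 to 232 in PH. No cardiomyocyte marker (0 of 14) was listed. Of 9 endothelial markers only ESAM was listed, which was lower in PH, and 4 of 12 macrophage and leukocyte markers were listed, 3 higher and 1 lower. CD68, C1QA and C1QB were higher, the last 2 listed at 0 in every CO library and at means of 2.44 and 1.64 in PH, and CD14 was lower (means of 7.12 and 2.01), so that sums were 7.76 to 11.0 in CO and 9.47 to 10.1 in PH libraries. The part of these markers in the SLRP values was not tested.

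The 4 members listed in both tables can be set side by side, without a test across the 2 species and tables. BGN had a log2 fold change of 2.55 in Cfib and 5.80 in ARVM, ASPN 5.51 and 6.81, and ISLR 5.14 and 6.08. OGN had 2.67 in Cfib and -1.75 in ARVM. Among the 1178 genes listed in both tables, 44.3% had opposite signs, of which 199 were higher in PH Cfib and lower in PH-CM ARVM, as OGN was.

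**Figure D3:**
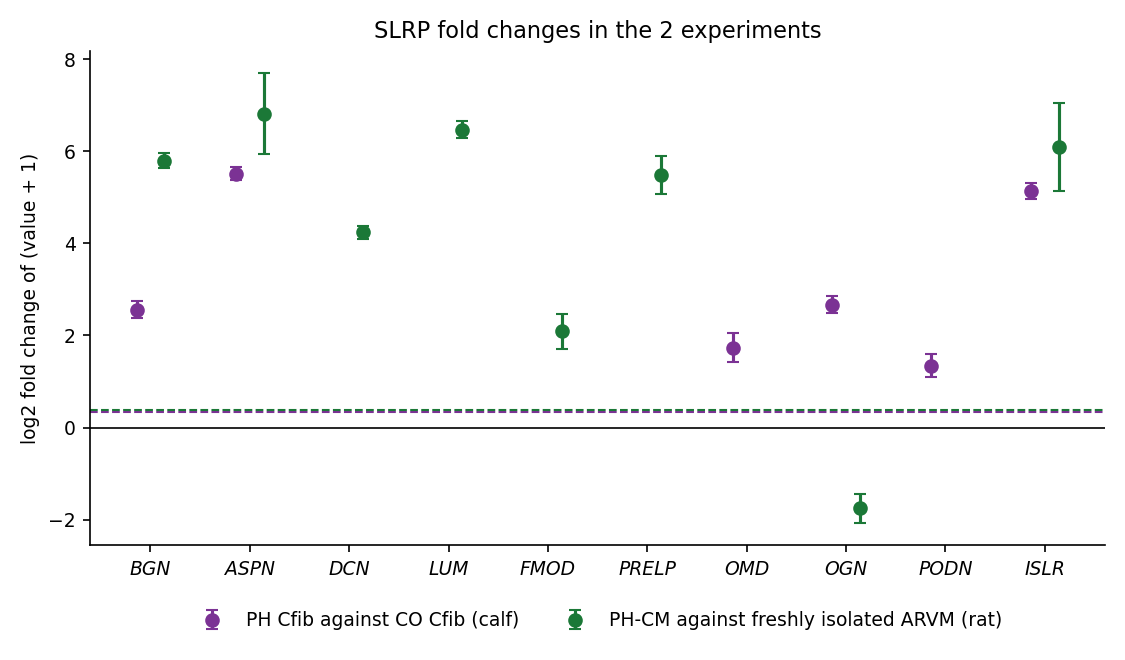
Log2 fold change of (value + 1) with its SE for each listed member, in PH against CO Cfib (purple) and in PH-CM against freshly isolated ARVM (green), with dashed lines at the medians of all listed genes (0.33 and 0.37). OGN is above 0 in Cfib (2.67) and below 0 in ARVM (-1.75), while BGN, ASPN and ISLR are above 0 in both.

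Ratios between members within a library do not depend on the scaling of that library. They were chosen after the values had been seen, and with 3 against 3 libraries the exact permutation test cannot go below p = 0.1. ASPN per BGN was 0.00402 ± 0.00151 in CO Cfib and 0.0576 ± 0.00317 in PH Cfib (exact two-sided permutation p = 0.1, 0.12 after Benjamini-Hochberg adjustment over 6 ratios). ISLR per BGN was 0.0124 ± 0.00460 and 0.0920 ± 0.00155, at the same p and without overlap of the libraries. OGN per BGN was 0.0608, 0.0363 and 0.0608 in CO Cfib and 0.0608, 0.0553 and 0.0598 in PH Cfib. OGN and BGN thus kept about the same ratio in 5 of the 6 libraries, and the groups overlapped (exact two-sided permutation p = 0.8).

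In ARVM, Dcn per Bgn was 5.17, 5.62 and 5.59 in fresh and 1.78, 1.98 and 1.76 in PH-CM libraries. Lum per Dcn went from 0.0921 ± 0.0113 to 0.440 ± 0.0470. Ogn per Dcn went from 2.97 ± 0.466 to 0.0516 ± 0.0314, a log2 difference of -6.00. Each of these 3 ratios separated the groups without overlap, at the smallest p the design allows (0.1). For Ogn per Dcn this outcome was fixed in advance, because Ogn was lower and Dcn higher in every PH-CM library. Its p therefore adds nothing to the values of the 2 genes.

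**Figure D4:**
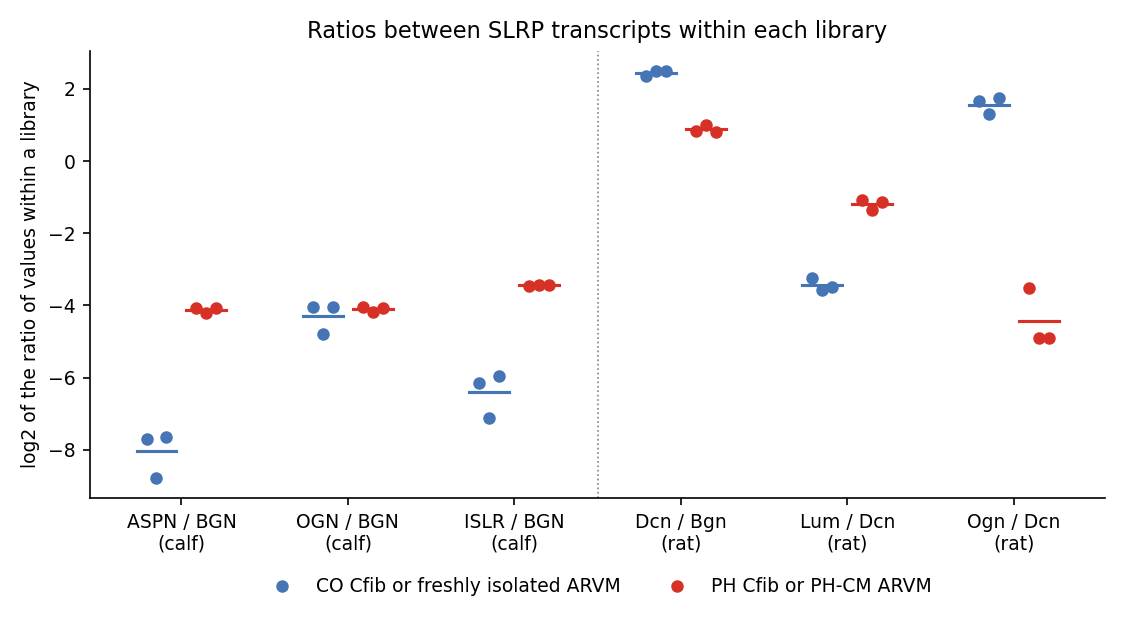
Ratios of 2 member values within each library, on the vertical axis as log2, for 3 pairs in calf Cfib (left of the dotted line) and 3 in rat ARVM (right), with 1 point per library, control groups in blue, PH and PH-CM in red, and a line at the mean. The groups overlap for OGN to BGN and are apart for the other 5 ratios, with the widest gap for Ogn to Dcn (log2 difference -6.00). Ogn and Dcn moved in opposite directions in every library, so their ratio could not overlap.

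Genes that lie beside Ogn and Aspn on rat chromosome 17 were measured in the same libraries. Nol8, before Ogn, had a mean of 964 normalized counts in fresh and 663 in PH-CM ARVM (log2 fold change -0.57, limma adjusted p = 0.0125), and Ippk, after Ecm2, had 157 and 106 (-0.56, limma adjusted p = 0.0302). The call of Ippk was lost without fresh ARVM 4 (adjusted p = 0.0774 by limma), fresh ARVM 5 (0.0716) or PH-CM ARVM 2 (0.0933). Ogn, Omd, Aspn and Ecm2 lie within the annotated span of Cenpp, which was not listed, and whether the counting used strand is not given in the sources used here. On another chromosome Dcn, Lum, Kera and Epyc are neighbours, of which Dcn, Lum and Epyc were listed and higher in PH-CM and Kera was not listed. In calf Cfib, ECM2 was at 82.7, 49.8 and 32.1 in CO and at 166, 157 and 162 in PH (log2 fold change 1.64, SE 0.31, limma adjusted p = 0.00245), so OGN, OMD, ASPN and ECM2 were all higher in PH Cfib. With the PH libraries averaged the call of ECM2 was lost too (limma adjusted p = 0.0682).

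Beyond the members, 3 of 13 related leucine-rich repeat genes were listed for Cfib and 2 for ARVM. All were called higher, beside 58.2% of all listed genes in Cfib and 53.9% in ARVM. In Cfib these were ECM2, LRRC17, which rose from a mean of 0.0691 to 8.16 (log2 fold change 3.09, from 0.85 to 5.61 over the pseudocounts), and EPYC, the epiphycan of cartilage (1.18). In ARVM, Epyc had 0 reads in the fresh libraries and 8, 4 and 13 reads in PH-CM, at least 5.77-fold higher against a floor of 3 reads over the fresh group. Tsku, a secreted BMP and Wnt modulator, rose from 125 ± 38.7 to 594 ± 59.5 normalized counts (log2 fold change 2.28).

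Enzymes and transporters that build the glycosaminoglycan chains of SLRPs rose in part. In Cfib, 9 of 33 were listed, 8 called higher and 1 lower, beside 58.2% and 39.4% of all listed genes. The median log2 fold change was 0.64 beside 0.33 over all listed genes. CHST2, a sulfotransferase, rose from 5.05 ± 0.969 to 23.4 ± 0.986 (log2 fold change 2.02) and SLC26A2, a sulfate transporter, from 6.90 ± 4.42 to 20.1 ± 1.87 (1.64, a call lost with the PH libraries averaged, limma adjusted p = 0.155), while CHST1, which sulfates keratan sulfate, fell from 14.7 ± 3.28 to 4.61 ± 0.282 (-1.46). In ARVM, 17 were listed, 14 called higher and 3 lower, beside 53.9% and 43.7% of all listed genes, with a median of 1.17 beside 0.37. Dse, the epimerase that turns chondroitin into dermatan sulfate, rose from 7.43 ± 8.79 to 582 ± 176 normalized counts (6.87, from 5.73 to 7.82 with 1 library left out, on 0, 16 and 5 fresh reads), and Chst12, a chondroitin sulfotransferase, from a mean of 15.2 to one of 110 (2.90). Csgalnact2, which starts chondroitin chains, fell from 2308 ± 425 to 1152 ± 71.8 (-0.99), and Chst11 was also called lower (-0.53, limma adjusted p = 0.0416). The call of Chst11 was lost when any 1 fresh library, PH-CM ARVM 2 or 1 of the other PH-CM libraries was left out (limma adjusted p of 0.0622 to 0.120), and in 5 of 13 alternatives in all. Of 6 such genes listed in both tables, CSGALNACT2 and CHST1 (33.3%) had opposite signs in Cfib and ARVM. Over all 1178 genes listed in both, 44.3% had opposite signs.

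Fibrillar and fibril-associated collagens and their assembly enzymes are the partners that SLRPs bind or act beside. In Cfib, 16 of 31 were listed, 15 called higher and 1 lower, beside 58.2% and 39.4% of all listed genes. The median log2 fold change was 1.14. COL12A1, a fibril-associated collagen, rose from 29.3 ± 15.8 to 385 ± 18.2 (3.85) and COL11A1, which nucleates fibrils, from 15.6 ± 4.39 to 201 ± 12.1 (3.64), and P4HA1, a prolyl hydroxylase subunit, fell (-0.59). In ARVM, 25 were listed and 25 were called higher, beside 53.9% of all listed genes, with a median of 5.50. Loxl1, a lysyl oxidase that cross-links elastin and collagen, rose from 4.64 ± 8.04 to 2255 ± 443 normalized counts (9.82, from 9.17 to 11.1 with 1 library left out, on 0, 13 and 0 fresh reads), and Col11a1 had 0 reads in the fresh libraries and a mean of 437 ± 35.9 in PH-CM, at least 369-fold higher. Beside these medians, that of the SLRPs was 2.61 in Cfib and 5.64 in ARVM, and no test between lists was made.

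**Figure D5:**
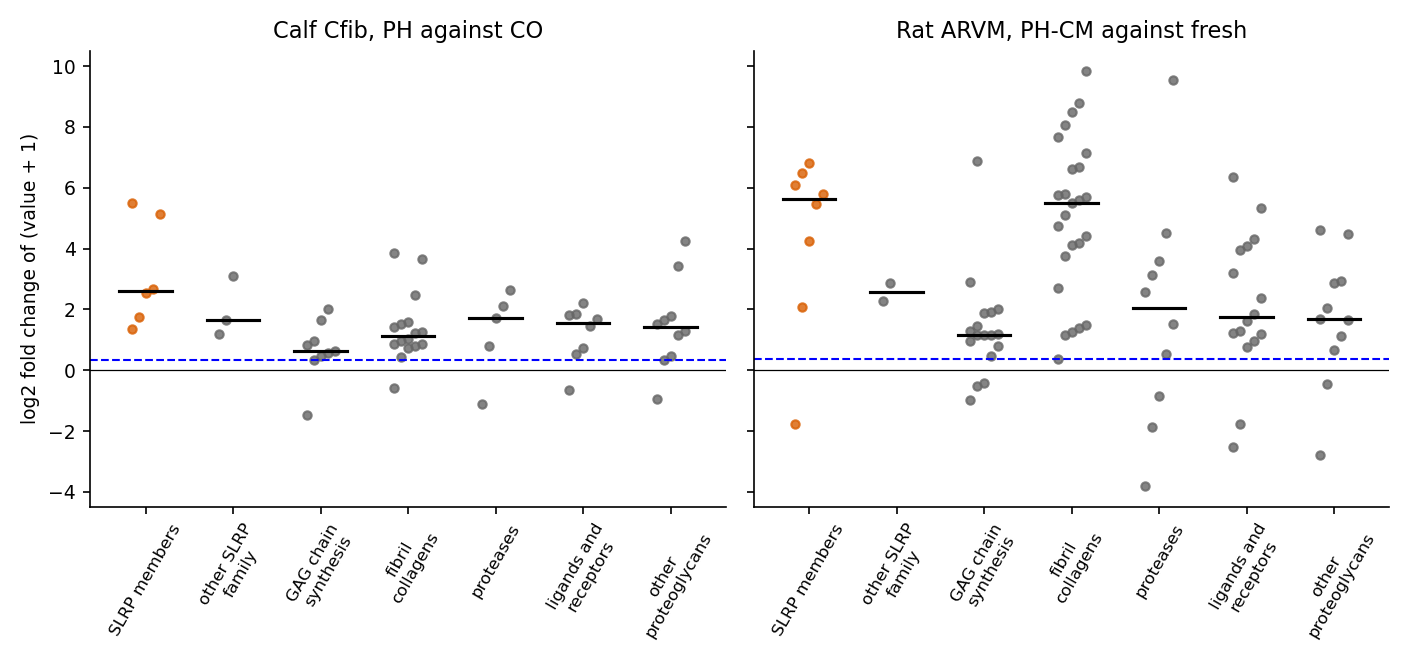
Log2 fold change of (value + 1) of every listed gene of the SLRPs (orange) and of 6 related lists, in Cfib (one panel) and ARVM (the other), with a black bar at each list's median and a blue dashed line at the median of all listed genes (0.33 in Cfib and 0.37 in ARVM). The SLRP median stands at 2.61 in Cfib, above those of the other lists, and at 5.64 in ARVM, close to that of the fibril list (5.50), with Ogn as the only SLRP below 0.

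The profiles most like those of ASPN and Dcn were found by the Euclidean distance between log2(value + 1) profiles centred on their mean over the 6 libraries of a table. In Cfib the nearest to ASPN were EFEMP1 (distance 0.124, log2 fold change 5.52), ISLR (0.491) and PRSS2 (0.658). In ARVM the nearest to Aspn were Kif23 (0.652), Osr1 (0.908) and Hs6st2 (0.950). The nearest to Dcn were Hspa1b (0.342), G0s2 (0.373) and the proteoglycan Vcan (0.374).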

How the data were processed

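RNA was sequenced from 12 libraries, 3 per group, of calf Cfib and rat ARVM. Per the labels, HISAT2, StringTie and DESeq2 were used with the builds bosTau8 and rn6. The authors deposited a signal per gene and library, for genes they had selected by a p-value under 0.05, so every adjustment runs over selected genes. The deposited ARVM signal is each gene's reads over a size factor of the library, since 100% of its values were whole multiples of a step within 0.01 reads. The smallest value above 0 stood for 2 reads in 1 PH-CM library and for 1 read in the others. The deposited Cfib signal was taken from its values as scaled by gene length, as FPKM and TPM are. The study's methods describe DESeq2-normalized counts instead, and the unit was not settled. Columns of no sample were 0, and the authors' own comparison columns were not used.

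The test between groups was that of limma 3.58.1 under R 4.3.3, on log2(value + 1) with a mean-variance trend and no covariate. Its p-values were adjusted by Benjamini and Hochberg over all listed genes, with a threshold of 0.05. Fold changes on that scale understate the change of low genes. On the recovered ARVM reads, DESeq2 1.42.0 and the quasi-likelihood test of edgeR 4.0.16 with TMM served as alternatives. Others were pseudocounts of 0.1 and 10, a minimum mean (5 in Cfib, 50 in ARVM), no trend, rescaling by the median of ratios, leaving out each library, a replicate block and the averaging of the PH Cfib libraries. Permutation tests used Python 3.11.15 with scipy 1.17.1. When 200 genes were given a simulated log2 fold change of 2, limma found 200 of them at the Cfib design (2115 genes, 11 other calls) and 200 at the ARVM design (7052 genes, 6 other calls). The simulated noise had the same setting for all genes of a table. The genes with the lowest means were not among those changed, and all other genes were left unchanged. This run therefore does not show how well low or variable genes are found.

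The members and lists were chosen with earlier results of these data known. Text names every listed member, the 2 called genes with the largest change in each direction of each list, up to 3 markers of highest mean per marker list and the 3 profiles nearest to ASPN and Dcn. The neighbours of Ogn and Aspn (Nol8, Ippk), the values of CHST1 and CSGALNACT2 in both tables, and EPYC in Cfib, Mfap5, Myh7, C1QB were named after their values were seen. Rat promoters and gene order come from RefSeq (GRCr8), in which 6570 of 7052 symbols were found, and no bovine annotation was used here.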

Additional observations from a re-analysis of the deposited data

How the results depend on the processing

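The 8 ARVM members kept their direction and call in all 13 alternatives run for them. Most listed ARVM genes were called there too, 6452 to 6878 of 7052 where every gene was kept. In Cfib, the 6 members kept direction in every alternative that tested them, PODN was removed by the minimum mean of 5, and the member calls lost were those of OMD and PODN with the PH libraries averaged. That alternative leaves 1 PH sample, assumed to vary like the CO libraries, and called 1038 Cfib genes in place of 2063. Under rescaling by the median of ratios the Cfib members had log2 fold changes of 1.13 (PODN) to 5.27 (ASPN). Leaving out 1 library gave 1.38 to 2.02 for OMD and no less than 1.05 for PODN in Cfib, and -2.15 to -1.52 for Ogn in ARVM. CO and PH Cfib share replicate numbers, which no source ties to a shared calf, litter or day, and the deviations of libraries of equal number correlated at 0.258, 0.0312 and 0.259. With the replicate block 6 members were called higher, and 1983 genes were called, and 5 of 6 libraries correlated best with their own number. No paired analysis was possible for ARVM because its groups share no replicate numbers. Cfib depth is unknown, and the fresh ARVM values of Aspn and Islr rest on 6 and 8 reads.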

Other observations

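Proteases known to cleave or process SLRPs, 17 in the list, were listed in part. In Cfib 5 were listed, 4 called higher and 1 lower, beside 58.2% and 39.4% of all listed genes. The median log2 fold change was 1.72. MMP9 rose from a mean of 0.707 to 9.67 (2.65, from 0.87 to 3.65 over the pseudocounts of 10 and 0.1) and MMP12 from 0.566 to 5.59 (2.11, from 0.56 to 3.35), while CTSK, the lysosomal cathepsin K, fell from 2004 ± 124 to 932 ± 40.0 (-1.10). In ARVM 10 were listed, 7 called higher and 3 lower, beside 53.9% and 43.7% of all listed genes, with a median of 2.04. Mmp12, known from macrophages, had 0 reads in the fresh libraries and a mean of 752 ± 186 normalized counts in PH-CM, at least 635-fold higher, and Adamts5, an aggrecanase, rose from 20.6 ± 10.9 to 465 ± 108 (4.51). Mmp3 fell (-3.81, from -6.01 to -1.71 over the pseudocounts, on 26, 44 and 15 reads against 0, 13 and 0) and so did Adamts4 (-1.85), from 744 ± 111 to 204 ± 9.08.

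Ligands and receptors known to bind SLRPs numbered 25 in the list. In Cfib 8 were listed, 7 called higher and 1 lower (median 1.56), beside 58.2% and 39.4% of all listed genes. TGFB3, a growth factor, rose from 4.56 ± 0.502 to 24.7 ± 0.681 (2.21) and ITGA2, a collagen-binding integrin subunit, from 1.94 ± 1.51 to 8.63 ± 0.413 (1.86, a call lost with the PH libraries averaged, limma adjusted p = 0.0781), and TLR2, a receptor of biglycan, fell from 16.8 ± 1.86 to 10.2 ± 0.558 (-0.66). In ARVM 16 were listed, 14 called higher and 2 lower (median 1.74), beside 53.9% and 43.7% of all listed genes. Wisp1, on 0, 0 and 6 fresh reads, had a log2 fold change of 6.35 (from 3.83 to 8.62 over the pseudocounts) and Fn1, fibronectin, rose from 319 ± 40.7 to 12798 ± 1445 normalized counts (5.32). Erbb4, the neuregulin receptor of cardiomyocytes (-2.52), and Kdr, the VEGF receptor of endothelium (-1.78), fell.

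Large, basement membrane and cell surface proteoglycans, 24 in the list, were listed 10 times in Cfib (9 called higher, 1 lower, median 1.41). They were listed 11 times in ARVM (9 higher, 2 lower, median 1.68). Over all listed genes, 58.2% were called higher and 39.4% lower in Cfib, and 53.9% and 43.7% in ARVM. In Cfib COL18A1 rose from a mean of 2.13 to 57.9 (4.24, from 2.48 to 4.71 over the pseudocounts) and PRG4, lubricin, from 0.428 ± 0.209 to 14.5 ± 1.12 (3.44, from 1.23 to 4.85), while the syndecan SDC1 fell (-0.94). In ARVM Gpc3, a glypican, rose (4.61) and Vcan, versican, rose from a mean of 47.7 to one of 1073 (4.48), while Srgn, the serglycin of blood cell granules (-2.78), and Cspg4, a pericyte proteoglycan (-0.46), fell.

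Of the marker genes with the highest mean in ARVM, S100a4 had a log2 fold change of 4.71, Vim 2.20, Lyz2 7.26, C1qa 4.60, Adgre1 3.80, Tagln 6.35, Acta2 5.07 and Pdgfrb 2.49. Those lower in PH-CM included Mb (-6.62), Myh6 (-5.58), Tnni3 (-4.35), Pecam1 (-0.93), Tie1 (-1.56) and Egfl7 (-1.40). In Cfib, FAP had 1.07, TCF21 0.64, MFAP5 0.51, ACTA2 1.23, MYH11 0.96, CNN1 -0.68, ESAM -1.08, CD14 -1.42 and CD68 0.51, and C1QA was listed at 0 in CO and at a mean of 2.44 in PH. The calls of FAP, ACTA2, MYH11, ESAM and CD14 held in the alternatives run, while TCF21, MFAP5, CNN1 and CD68 lost theirs with the PH libraries averaged, MFAP5 also under the median of ratios.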
